A study of Homo sapiens with 6 samples.

Results

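The genes described here are 9 genes of MHC class I antigen presentation: *HLA-B*, *HLA-C*, *HLA-E*, *HLA-F*, *B2M*, *TAP1*, *TAP2*, *PSMB8* and *PSMB9*. They were chosen by these symbols in the deposited table, and each symbol stood for a single gene among the 62703 genes listed. The cells were PANC-1, from a human ductal cancer of the pancreas, with RNA sequenced from 3 DKK1-SE+/+ samples (wild type, labelled WT and Control) and 3 DKK1-SE-/- samples, in which CRISPR/Cas9 had removed e1, a component enhancer of the super-enhancer DKK1-SE, from both alleles. The study obtained a single homozygous subclone, so the 3 DKK1-SE-/- samples came from 1 clone, and effects of the deletion and other differences of that clone cannot be told apart. The labels call the samples of each group biological replicates without saying how they were separated, so the p-values measure the spread between these samples. The summed expected counts were 21822314, 16475810 and 18803154 in the DKK1-SE+/+ samples and 17359835, 20098086 and 17804764 in the DKK1-SE-/- samples, in the order of replicates 1 to 3, which is kept throughout.

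MHC class I molecules show short peptides from inside the cell to CD8 T cells and to natural killer cells. Proteasomes cut proteins into peptides, and the immunoproteasome, in which the catalytic subunits *PSMB8* and *PSMB9* take the place of *PSMB5* and *PSMB6*, shifts the cuts toward peptide ends that class I molecules bind well. The transporter TAP, made of *TAP1* and *TAP2*, carries peptides into the endoplasmic reticulum, where a loading complex places them on a heavy chain paired with the invariant light chain *B2M*. *HLA-B* and *HLA-C* are classical heavy chains, while *HLA-E* and *HLA-F* are non-classical ones. Interferons, *IRF1*, NF-kappa B and *NLRC5* are known inducers of these genes, and loss of class I molecules is a known route by which carcinomas, those of the pancreas included, avoid T cells.

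*DKK1*, the gene for which the deleted super-enhancer is named, checked the labels. Its level was 229, 246 and 199 TPM in the DKK1-SE+/+ samples and 66.8, 79.8 and 82.7 TPM in the DKK1-SE-/- samples. All 3 DKK1-SE-/- samples were below all 3 DKK1-SE+/+ samples, and the log2 fold change was -1.45 ± 0.11 (SE, n = 3 per group) with an adjusted p of 6.16e-06 in edgeR's quasi-likelihood test. Of the keratins that mark the labelled cell, *KRT8* had 957 ± 27.2 TPM and *KRT18* 856 ± 12.9 TPM in DKK1-SE+/+ cells (mean ± SD, n = 3), while *KRT19* (53.9 ± 5.79 TPM) and *KRT7* (13.3 ± 1.58 TPM) were far lower. These epithelial markers differed between the groups, since 3 of the 4 tested (*KRT8*, *KRT18* and *KRT19*) were called higher in DKK1-SE-/- cells and none lower, against 19.8% and 19.5% of all tested genes. Acinar, endocrine and endothelial markers were near 0, with a highest sum of 0.2, 0.33 and 0.22 TPM in any sample, and fibroblast markers summed to at most 1.22 TPM.

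Leukocytes carry much class I mRNA, and their 6 markers summed to 44.1, 41.5 and 46.96 TPM in DKK1-SE+/+ and 69.4, 66.5 and 68.9 TPM in DKK1-SE-/- samples. *CD68*, which is also a lysosomal protein of other cells, gave 97.9% of that sum, and was called higher. *CD14* had 12, 4 and 9 counts in DKK1-SE+/+ and 20.0, 32 and 26 counts in DKK1-SE-/- samples, too few in DKK1-SE+/+ samples to lean on its test. The defining marker *PTPRC* (CD45) had a mean of 0 TPM in DKK1-SE+/+ and 0.0167 TPM in DKK1-SE-/- samples, and *CD3E* 0 and 0.02 TPM. In bulk RNA, more cells that express a gene and more RNA per cell cannot be told apart.

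Promoter sequences are shown for the heavy chains *HLA-B* and *HLA-C*, whose mRNA rose, for *TAP1* and *PSMB9*, which rose and are transcribed away from each other from a shared stretch, and for *B2M*, which did not pass the test. They are the 250 bases before each gene start in RefSeq (GRCh38.p14), 5′ to 3′ on the gene's strand, and they are the reference sequence, not that of the PANC-1 alleles. Of the 9 members, 8 had an entry, with 10 windows in all (not *HLA-E*). Capitals mark letters of any of 5 motifs, searched on both strands. The interferon-stimulated response element core was searched as GAAA, any 2 bases and GAAA again, the kappa B motif as GGG, any 5 bases and then CC, the X2 box as TGACGC, the Y box as CCAAT, and the AP1 motif as TGANTCA. The windows lie at chr6:31357180-31357429, minus strand for *HLA-B*, chr6:31272093-31272342, minus strand for *HLA-C*, chr6:32853705-32853954, minus strand for *TAP1*, chr6:32853942-32854191, plus strand for *PSMB9*, and chr15:44711267-44711516, plus strand for *B2M*.
*HLA-B*: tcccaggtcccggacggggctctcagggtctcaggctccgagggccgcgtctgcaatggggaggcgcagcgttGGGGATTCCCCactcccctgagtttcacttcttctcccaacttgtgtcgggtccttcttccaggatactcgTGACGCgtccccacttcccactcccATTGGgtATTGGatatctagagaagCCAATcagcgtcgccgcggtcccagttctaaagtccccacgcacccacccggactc
*HLA-C*: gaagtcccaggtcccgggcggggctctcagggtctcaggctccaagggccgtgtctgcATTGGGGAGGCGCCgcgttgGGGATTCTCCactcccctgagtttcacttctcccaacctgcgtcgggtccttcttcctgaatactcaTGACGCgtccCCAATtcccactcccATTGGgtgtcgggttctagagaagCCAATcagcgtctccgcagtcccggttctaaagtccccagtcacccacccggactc
*TAP1*: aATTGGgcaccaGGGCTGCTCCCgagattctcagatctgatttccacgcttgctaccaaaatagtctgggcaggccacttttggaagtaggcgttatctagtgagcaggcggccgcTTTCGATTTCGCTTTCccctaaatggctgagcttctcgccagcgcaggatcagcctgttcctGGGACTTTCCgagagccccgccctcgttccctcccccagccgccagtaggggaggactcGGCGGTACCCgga
*PSMB9*: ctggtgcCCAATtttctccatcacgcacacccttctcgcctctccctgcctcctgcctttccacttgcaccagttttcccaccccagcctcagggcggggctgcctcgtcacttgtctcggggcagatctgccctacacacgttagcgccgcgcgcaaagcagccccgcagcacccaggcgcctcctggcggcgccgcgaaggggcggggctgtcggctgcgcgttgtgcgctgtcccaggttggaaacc
*B2M*: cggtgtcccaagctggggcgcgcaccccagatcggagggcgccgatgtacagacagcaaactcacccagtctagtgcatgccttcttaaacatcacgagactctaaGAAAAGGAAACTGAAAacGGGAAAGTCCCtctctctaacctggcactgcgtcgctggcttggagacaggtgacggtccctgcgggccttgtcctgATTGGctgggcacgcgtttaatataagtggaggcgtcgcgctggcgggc

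The response element core was in a window of 4 of the 8 members matched (*HLA-F*, *B2M*, *TAP1* and *TAP2*), and in 3.02% of all 35116 windows of the same length. Kappa B matches were found for 5 members (*HLA-B*, *HLA-C*, *B2M*, *TAP1* and *TAP2*) and in 54.4% of all windows. The X2 box was found for 3 members (*HLA-B*, *HLA-C* and *TAP2*) against 7.67% of all windows, and the Y box for 6 members (*HLA-B*, *HLA-C*, *HLA-F*, *B2M*, *TAP1* and *PSMB9*) against 32%. The AP1 motif was in 0 of the member windows and in 6.57% of all windows. Counted by window, as these shares are, the response element core was in 4 of the 10 member windows and kappa B in 6. The X2 box was in 3 of them and the Y box in 6. Some matches share bases: a Y box and a kappa B match share 1 base in *HLA-C*, and matches of the same motif overlap each other in *HLA-B*, *B2M* and *TAP1*. The starts of *TAP1* and *PSMB9* lie 487 bases apart, and their windows share 13 bases, which hold the same Y box read on opposite strands. Neither of the *PSMB8* windows held any of the 5 motifs. A match is a description of the letters, and binding was not measured.

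The class I pathway mRNA was mostly higher in DKK1-SE-/- cells. Of the 9 members, 8 passed the filter on low counts and were tested, and *HLA-F* did not. A gene was called when its edgeR p-value, adjusted over all 15179 tested genes, was under 0.05. *HLA-B*, *HLA-C*, *HLA-E*, *TAP1*, *PSMB8* and *PSMB9* were called higher, 6 of the 8 tested, while 19.8% of all tested genes were called higher. *B2M* and *TAP2* were not called and none of the 8 was called lower in edgeR or in DESeq2, against 19.5% of all tested genes, so that 39.3% of tested genes were called in either direction. The median log2 fold change was 0.73 over the 8 members and 0.03 over all tested genes. A DEG rule was also applied, with an unadjusted p under 0.05 in edgeR and the limit of 1.2 from the study's methods. The methods word that limit as an absolute fold change, and here it was applied on the log2 scale, which is stricter. None of the 8 members was a DEG on that scale, while 4.96% of tested genes were DEGs in the higher and 3.7% in the lower direction. With the limit on the linear fold change, a reading added after seeing the data, 7 of the 8 passed in the higher direction (all but *B2M*) and 0 in the lower, against 24.3% and 23.3% of tested genes.

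TPM values gave the same picture in most members. The groups did not overlap in 7 of the 8 tested members, all higher in DKK1-SE-/- samples (*HLA-B*, *HLA-C*, *HLA-E*, *TAP1*, *TAP2*, *PSMB8* and *PSMB9*), and 17.5% of tested genes had groups apart in that direction and 26.7% in the other. In each sample the values of TPM share a fixed total, and the median of all log2 fold changes was shifted by -0.11 when limma was run on log2(TPM + 1) in place of edgeR on counts. That fit called 4161 genes, of which 35.8% were higher, and limma on log2(TPM + 0.1) called 3315, of which 37.3% were higher, against 50.5% of the 5972 called by edgeR. These fits also change the added constant and the test, so the effect of TPM alone was not tested. *TAP2* went the other way, with 0.40 on log2(TPM + 1) against 0.27 in edgeR.

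**Figure D1:**
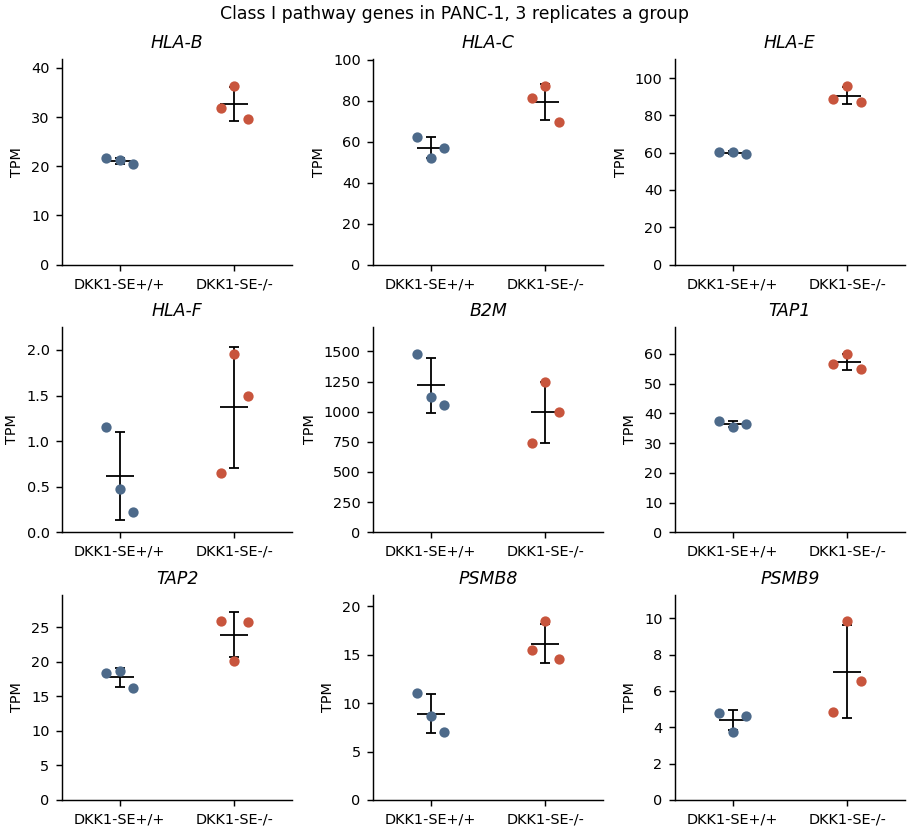
TPM of the 9 members in each sample (points), with the mean and SD of each group (bars, n = 3), each panel on its own linear axis from 0. The groups are apart for *HLA-B*, *HLA-C*, *HLA-E*, *TAP1*, *TAP2*, *PSMB8* and *PSMB9* and overlap for *HLA-F* and *B2M*.

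Among the heavy chains, *HLA-E* (ENSG00000204592, chr6:30489509-30494194, plus strand in GENCODE 44 on hg38), a ligand of the NKG2A receptor of natural killer cells, had 60.6, 60.6 and 59.03 TPM in DKK1-SE+/+ samples and 88.9, 95.8 and 87.1 TPM in DKK1-SE-/- samples. Its values were tight within each group and every DKK1-SE-/- sample was higher, with a log2 fold change of 0.72 ± 0.11 (1.64-fold) and an edgeR adjusted p of 0.00054. *HLA-B* (ENSG00000234745, chr6:31353872-31367067, minus strand), a classical heavy chain, had 21.7, 21.3 and 20.5 TPM and 31.9, 36.4 and 29.6 TPM in the same order of groups. All 3 of its DKK1-SE-/- samples were again above the DKK1-SE+/+ range, and its log2 fold change was 0.75 ± 0.13 (1.68-fold, edgeR adjusted p = 0.00109). *HLA-C* (ENSG00000204525, chr6:31268749-31272130, minus strand), also a classical heavy chain and a main ligand of KIR receptors, had 62.4, 51.98 and 56.8 TPM in DKK1-SE+/+ and 81.2, 87.2 and 69.6 TPM in DKK1-SE-/- samples. The groups came closest in DKK1-SE-/- replicate 3, which was still higher than each DKK1-SE+/+ sample. The log2 fold change of *HLA-C* was 0.61 ± 0.14 (1.53-fold, edgeR adjusted p = 0.00628), but it was not called once GC content was included in the model (0.27 ± 0.10, adjusted p = 0.0596, range over all alternatives 7.26e-05 to 0.0772).

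*HLA-F* (ENSG00000204642, chr6:29722775-29738528, plus strand) was close to the limit of detection, with 9, 3 and 3 counts in DKK1-SE+/+ and 8, 32 and 22 counts in DKK1-SE-/- samples. As TPM these were 1.16, 0.47 and 0.22 and 0.65, 1.96 and 1.5. DKK1-SE-/- replicates 2 and 3 were above all DKK1-SE+/+ samples, whereas DKK1-SE-/- replicate 1 lay below DKK1-SE+/+ replicate 1, so the groups overlapped. No test of *HLA-F* is given.

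HLA genes are near-identical over much of their length, and the counting program and its treatment of reads that match several genes are not given in the sources used here. The expected counts of *HLA-B*, *HLA-C* and *HLA-E* were not whole numbers in any of the 6 samples (tolerance 0.001), as happens when reads are shared out between genes, while those of *B2M* and *HLA-F* were whole in all 6. *TAP1*, *TAP2* and *PSMB8* had no whole count in any sample either, and *PSMB9* had 1 count that was not whole, so the pattern is not limited to HLA genes. The levels of individual heavy chains are uncertain because of their shared sequence. The GENCODE span of *HLA-B* overlaps the pseudogenes *DHFRP2*, with at most 3 counts in any sample, and ENSG00000271581, with at most 6.43, and *HLA-F* overlaps the antisense gene *HLA-F-AS1*, with 8, 1 and 4.08 counts in DKK1-SE+/+ and 5, 11 and 5 counts in DKK1-SE-/- samples. The library kit was stranded, but whether the counting used strand is not given in the sources used here.

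*B2M* (ENSG00000166710, chr15:44711358-44718851, plus strand), the light chain that every class I heavy chain needs to reach the surface in stable form, lies outside the MHC. It was the most abundant of the members, with 1481, 1125 and 1056 TPM in DKK1-SE+/+ and 742, 1243 and 998 TPM in DKK1-SE-/- samples. DKK1-SE-/- replicate 1 was the lowest and DKK1-SE+/+ replicate 1 the highest, and the other 4 samples lay between them, so the groups overlapped. Its log2 fold change was -0.16 ± 0.17 (edgeR adjusted p = 0.487), and the direction turned with a GC-content offset (0.21 ± 0.16, adjusted p = 0.302). With a sample left out the log2 fold change of *B2M* ranged from -0.37 to -0.05. None of the 15 alternatives called it, with adjusted p from 0.0827 to 0.854.

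The TAP subunits lie next to the immunoproteasome genes, and *TAP2*, *PSMB8*, *PSMB9* and *TAP1* together span 38 kb. *TAP1* (ENSG00000168394, chr6:32845209-32853816, minus strand), which binds and moves peptides together with *TAP2*, had 37.6, 35.3 and 36.3 TPM in DKK1-SE+/+ and 56.6, 60.1 and 54.9 TPM in DKK1-SE-/- samples. No sample of either group came near the other group, and *TAP1* had the smallest adjusted p of the members (0.81 ± 0.11, 1.75-fold, edgeR adjusted p = 0.000273). *TAP2* (ENSG00000204267, chr6:32821833-32838739, minus strand) had 18.4, 18.7 and 16.2 TPM and 25.9, 20.1 and 25.8 TPM. DKK1-SE-/- replicate 2 was only slightly above the highest DKK1-SE+/+ sample, and from counts *TAP2* was not called (0.27 ± 0.11, edgeR adjusted p = 0.082). A GC-content offset brought it past the threshold (0.26 ± 0.09, adjusted p = 0.0341), the only one of 15 alternatives to do so (range 0.0341 to 0.32). The span of *TAP2* is shared with a read-through gene on the same strand, ENSG00000250264, that had a mean of 13.9 TPM in DKK1-SE+/+ and 14.4 TPM in DKK1-SE-/- samples, so its level is uncertain. The ratio of *TAP1* to *TAP2* TPM was 2.06 ± 0.176 in DKK1-SE+/+ and 2.44 ± 0.477 in DKK1-SE-/- samples (mean ± SD, n = 3), with overlapping groups.

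Both immunoproteasome subunits of the set were called higher. *PSMB8* (ENSG00000204264, chr6:32840717-32844679, minus strand), the chymotrypsin-like subunit, had 11.01, 8.68 and 7.04 TPM in DKK1-SE+/+ and 15.5, 18.5 and 14.5 TPM in DKK1-SE-/- samples. The highest DKK1-SE+/+ sample, replicate 1, was below the lowest DKK1-SE-/- sample, replicate 3. With a log2 fold change of 1.09 ± 0.19 (2.13-fold, edgeR adjusted p = 0.00138), *PSMB8* had the largest change of the 8 tested members in this fit. *PSMB9* (ENSG00000240065, chr6:32844136-32859851, plus strand), which replaces *PSMB6*, had 4.8, 3.76 and 4.63 TPM and 4.84, 9.83 and 6.53 TPM, from 70.0, 41.1 and 51 counts and 56, 136 and 77 counts. DKK1-SE-/- replicate 1 was almost level with DKK1-SE+/+ replicate 1, and DKK1-SE-/- replicate 2 stood highest. The log2 fold change of 0.84 ± 0.27 (1.79-fold, edgeR adjusted p = 0.0312) was the least certain of the 6 calls: it held in 8 of 15 alternatives (range 0.00592 to 0.169) and was lost without DKK1-SE+/+ replicate 1, 2 or 3 or DKK1-SE-/- replicate 2 (log2 fold changes of 0.49 to 0.90, adjusted p = 0.0522 to 0.169).

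Within a sample, *PSMB8* TPM was 6.2, 5.59 and 4.62% of that of its constitutive counterpart *PSMB5* in DKK1-SE+/+ samples and 9.27, 9.05 and 9.02% in DKK1-SE-/- samples, with no overlap. *PSMB9* was 1.75, 1.65 and 2.09% of *PSMB6* in DKK1-SE+/+ and 1.92, 3.07 and 2.74% in DKK1-SE-/- samples, and here the groups overlapped. At the mRNA level the constitutive subunits were therefore far more abundant in all 6 samples. *PSMB10*, the remaining immunoproteasome subunit, which replaces *PSMB7* and lies outside the MHC, was 10.2, 9.55 and 7.64% and 8.35, 9.39 and 5.25% of *PSMB7*, also overlapping. In GENCODE 44 the span of *PSMB9* contains that of *TAP1* and overlaps that of *PSMB8*, both on the opposite strand, and all 3 overlap the non-coding *PSMB8-AS1* (4.06, 9.3 and 2.44 counts in DKK1-SE+/+ and 12.3, 34.5 and 11.3 counts in DKK1-SE-/- samples). Because the use of strand in counting is not stated, reads of *PSMB8*, *PSMB9* and *TAP1* cannot be fully told apart.

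Of 12 other proteasome genes listed, all were tested, 1 was called higher and 1 lower, against 19.8% and 19.5% of all tested genes, with a median log2 fold change of 0.17. *PSMB10* had 20.1 ± 4.08 TPM in DKK1-SE+/+ and 17.2 ± 6.46 TPM in DKK1-SE-/- samples (mean ± SD, n = 3; log2 fold change 0.20 ± 0.26). The interferon-inducible proteasome activator genes *PSME1* and *PSME2* were not called either, at -0.07 ± 0.14 and -0.01 ± 0.14. Nor were the constitutive catalytic subunits *PSMB5* (0.29 ± 0.14), *PSMB6* (0.34 ± 0.15) and *PSMB7* (0.18 ± 0.13), although *PSMB5* and *PSMB6* passed the threshold without DKK1-SE-/- replicate 3 in edgeR (0.38, adjusted p = 0.0144, range over alternatives 0.0144 to 0.514 for *PSMB5*, and 0.45, adjusted p = 0.0129, range over alternatives 0.0129 to 0.492 for *PSMB6*, which passed in 2 of 15 alternatives). The genes called were named after their values were seen. *PSMD1*, a subunit of the regulatory particle, had 91.9, 92.4 and 89.4 TPM in DKK1-SE+/+ and 45.01, 54.9 and 68.1 TPM in DKK1-SE-/- samples, all 3 of them lower (-0.53 ± 0.12, edgeR adjusted p = 0.00488), and was called in 15 of 15 alternatives. *PSME3*, an activator subunit, was 0.30 ± 0.10 (edgeR adjusted p = 0.0337) with overlapping TPM, a call that held in 4 of 15 alternatives (range 0.0106 to 0.437) and was lost without DKK1-SE+/+ replicate 1, 2 or 3 or DKK1-SE-/- replicate 1 or 2 (log2 fold changes of 0.23 to 0.33, adjusted p = 0.0817 to 0.188).

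Genes of peptide loading and trimming were also mixed. Of 7 listed and tested, 4 were called higher and 1 lower, against 19.8% and 19.5% of all tested genes, with a median log2 fold change of 0.38. With the replicate block 3 were called higher and 0 lower, against 2404 and 2577 of all 15179 tested genes. *CALR*, the chaperone calreticulin of the loading complex, had 598, 633 and 645 TPM in DKK1-SE+/+ and 1070.0, 1054 and 1056 TPM in DKK1-SE-/- samples. Its groups were far apart (0.93 ± 0.10, 1.9-fold, edgeR adjusted p = 6.25e-05). *PDIA3* (ERp57), which is bound to tapasin in the complex, was 445 ± 17.8 TPM and 545 ± 75.6 TPM (0.44 ± 0.09, edgeR adjusted p = 0.00412), and limma on log2(TPM + 1) did not call it (0.28, adjusted p = 0.101, range over alternatives 0.000213 to 0.141). *TAPBPL*, a tapasin-related peptide editor counted among those higher, was low throughout, with 10.01, 8 and 4 counts in DKK1-SE+/+ and 22, 35 and 25 counts in DKK1-SE-/- samples. It passed the filter through its DKK1-SE-/- counts alone, so no fold change is given. *TAPBP*, the gene of tapasin itself, was 0.38 ± 0.12 (edgeR adjusted p = 0.0285) with overlapping TPM, and the call held in 6 of 15 alternatives (range 0.0169 to 0.339), being lost without DKK1-SE+/+ replicate 1 or 2 or DKK1-SE-/- replicate 1 (log2 fold changes of 0.26 to 0.39, adjusted p = 0.091 to 0.205). *CANX*, a chaperone of new heavy chains, was at -0.04 ± 0.11 and not called.

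Of the aminopeptidases that trim peptides in the endoplasmic reticulum, *ERAP1* was called lower, with 15.5, 15.8 and 13.8 TPM in DKK1-SE+/+ and 8.41, 10.4 and 13.6 TPM in DKK1-SE-/- samples (-0.38 ± 0.13, edgeR adjusted p = 0.0408). The call was lost without DKK1-SE+/+ replicate 1, 2 or 3 or DKK1-SE-/- replicate 1 or 2 (log2 fold changes of -0.43 to -0.30, adjusted p = 0.0784 to 0.119) and with a GC-content offset (-0.01 ± 0.08, adjusted p = 0.938), and held in 5 of 15 alternatives (range 0.00201 to 0.963). *ERAP2* was 3.02 ± 0.301 TPM and 2.97 ± 0.757 TPM (-0.29 ± 0.19) and not called, although it passed without DKK1-SE-/- replicate 3 (log2 fold change -0.55, adjusted p = 0.0133, range over alternatives 0.0133 to 0.975).

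Log2 fold changes in these data rose with the GC content of the genes, with a Spearman correlation of 0.40 across 15167 tested genes, which share the same 6 libraries and are not independent. The members ranged from 38.9% GC in *B2M* to 62.7% in *HLA-C*, with a median of 52.9% among the 8 tested, against 48.2% over all tested genes. With an offset for GC content in edgeR, the median log2 fold change of the members was 0.53 and 6 of 8 were called higher, now with *TAP2* and without *HLA-C*, when 20.9% of tested genes were called higher and 20.4% lower. *HLA-E* was again called higher (0.50 ± 0.07, adjusted p = 0.000239, range over alternatives 7.4e-08 to 0.00586), and so was *HLA-B* (0.59 ± 0.09, adjusted p = 0.000558, range over alternatives 1.4e-05 to 0.0132). GC content was that of the longest transcript of each gene, 52.0% for *HLA-B* and 62.7% for *HLA-C*. The size of each offset depends on that choice, and other transcripts were not tried, so the different outcomes of *HLA-B* and *HLA-C* under the offset are uncertain. *TAP1* (0.55 ± 0.08, adjusted p = 0.000245, range over alternatives 4.26e-09 to 0.00518) also kept its call. The immunoproteasome genes *PSMB8* (0.89 ± 0.17, adjusted p = 0.00198, range over alternatives 8.78e-08 to 0.0226) and *PSMB9* (0.85 ± 0.26, adjusted p = 0.0229) were called higher under the offset too. In the loading list *TAPBP* (0.14 ± 0.10, adjusted p = 0.294) was not called under the offset, and *CANX* was called higher (0.23 ± 0.07, adjusted p = 0.0189, range over alternatives 0.0189 to 0.953).

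**Figure D2:**
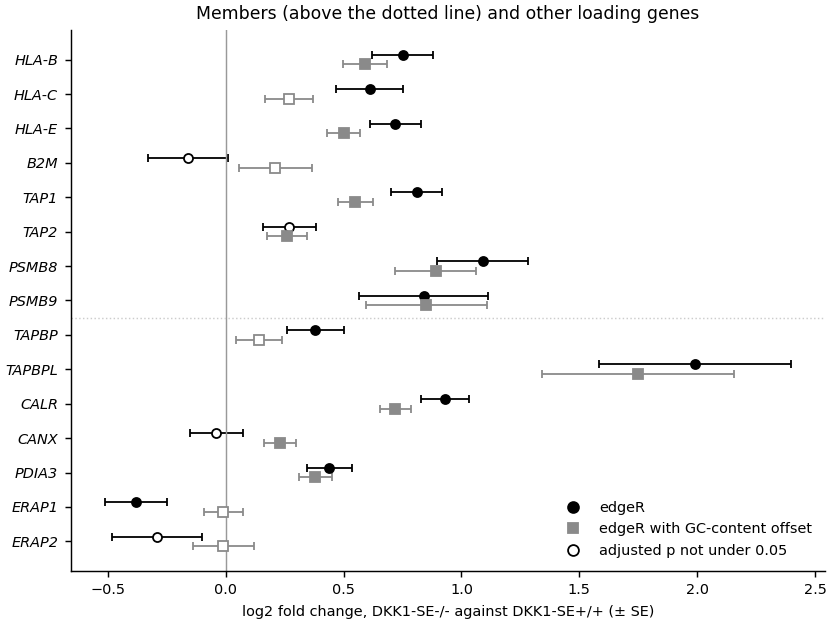
Log2 fold changes with SE for the 8 tested members, and below the dotted line for 7 genes of loading and trimming, from edgeR (circles) and with a GC-content offset (squares). Filled symbols have an adjusted p under 0.05, and *TAPBPL* has few counts in DKK1-SE+/+ samples and passed the filter through its DKK1-SE-/- counts alone. *HLA-B*, *HLA-E*, *TAP1*, *PSMB8* and *PSMB9* stay to the right of 0 and filled in both fits.

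The regulators of these genes did not move as a group. Of 24 counted, all were tested, 4 were called higher and 7 lower, against 19.8% and 19.5% of all tested genes, with a median log2 fold change of 0.01. *IRF1*, a transcription factor that interferon gamma induces and that activates class I and immunoproteasome promoters, was called higher in edgeR (0.83 ± 0.12, 1.78-fold, adjusted p = 0.000441). Its TPM was 47.2, 38.1 and 49.97 in DKK1-SE+/+ and 96.7, 80.99 and 49.3 in DKK1-SE-/- samples, where replicate 3 was within the DKK1-SE+/+ range, and limma on log2(TPM + 1) did not call it (0.69, adjusted p = 0.0516; range over alternatives 2.69e-08 to 0.0924). *NLRC5*, the class I transactivator, was barely detected at 0.86, 0.44 and 0.78 TPM and 1.02, 0.72 and 2.05 TPM, with 39, 11 and 27 counts and 19, 35 and 28 counts. It was not called (0.23 ± 0.39, edgeR adjusted p = 0.662). *RFXANK*, which binds class I and class II promoters together with *RFX5*, was called higher (0.56 ± 0.15, adjusted p = 0.0121 in edgeR), though not without DKK1-SE+/+ replicate 1 (log2 fold change 0.50, adjusted p = 0.0671, range over alternatives 0.000679 to 0.0671). A GC-content offset in edgeR lowered it to 0.28 ± 0.08 (adjusted p = 0.0233). The call was lost with the replicate block added to that offset (0.27, adjusted p = 0.0603). *RFX5* (0.28 ± 0.10, adjusted p = 0.045) kept its call in 2 of 15 alternatives (range 0.0331 to 0.72) and lost it without DKK1-SE+/+ replicate 1, 2 or 3 or DKK1-SE-/- replicate 1 or 2 (log2 fold changes of 0.26 to 0.28, adjusted p = 0.05 to 0.178). *RELA*, an NF-kappa B subunit, was 0.37 ± 0.13 (adjusted p = 0.0363 in edgeR) and kept its call in 4 of 15 alternatives (range 0.00615 to 0.386), losing it without DKK1-SE+/+ replicate 1, 2 or 3 or DKK1-SE-/- replicate 1 or 2 (log2 fold changes of 0.23 to 0.43, adjusted p = 0.0576 to 0.189). *NFKB1*, also an NF-kappa B subunit, was not called (0.27 ± 0.10, edgeR adjusted p = 0.0514) but passed with a GC-content offset (0.80 ± 0.13, adjusted p = 0.000708), in 2 of 15 alternatives in all (range 0.000708 to 0.437), and was named after its values were seen.

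The 4 chains tested of the type I and type II interferon receptors were called lower, against 19.5% of all tested genes. *IFNGR1*, the ligand-binding chain for interferon gamma, had 15.5, 15.2 and 13.1 TPM in DKK1-SE+/+ and 6.52, 8.03 and 8.54 TPM in DKK1-SE-/- samples. Its log2 fold change was -0.77 ± 0.14 (edgeR adjusted p = 0.00132). *IFNGR2* was -0.40 ± 0.10 (edgeR adjusted p = 0.012), with its call lost without DKK1-SE+/+ replicate 2 (log2 fold change -0.40, adjusted p = 0.055, range over alternatives 0.000444 to 0.055). The type I receptor chains *IFNAR1* and *IFNAR2* were -0.70 ± 0.14, adjusted p = 0.0032, and -0.74 ± 0.12, adjusted p = 0.000957, in edgeR. *IFNAR1* was not called by limma on log2(TPM + 1) (-0.60, adjusted p = 0.0525; range over alternatives 2.03e-06 to 0.0885). TPM of the 4 chains did not overlap between the groups, against 26.7% of tested genes in that direction. With the GC-content offset all 4 were again called lower, against 20.4% of all tested genes.

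*JAK1*, a kinase bound to chains of both receptors, was -0.31 ± 0.10 (edgeR adjusted p = 0.0371), a call that held in 8 of 15 alternatives (range 0.0036 to 0.151) and not without DKK1-SE+/+ replicate 1, 2 or 3 or DKK1-SE-/- replicate 1 or 2 (log2 fold changes of -0.35 to -0.26, adjusted p = 0.069 to 0.151). *STAT2* (-0.27 ± 0.12), *IRF2* (0.22 ± 0.16) and *IRF9* (0.47 ± 0.20) were not called, although *STAT2* passed with a GC-content offset (-0.37 ± 0.10, adjusted p = 0.0165, range over alternatives 0.0165 to 0.307) and without DKK1-SE-/- replicate 3 (log2 fold change -0.35, adjusted p = 0.0293), in 3 of 15 alternatives in all, and *IRF9* without DKK1-SE+/+ replicate 1 (log2 fold change 0.70, adjusted p = 0.0195, range over alternatives 0.0195 to 0.352). *TYK2*, a kinase of the type I receptor named after its values were seen, was at -0.01 ± 0.12 and not called, and was called lower with a GC-content offset (-0.31 ± 0.08, adjusted p = 0.00867; range over alternatives 0.00867 to 0.975). Of the factors that bind the X and Y boxes, *CREB1* (-0.83 ± 0.14, adjusted p = 0.00129) and *NFYB* (-0.70 ± 0.15, adjusted p = 0.00335) were called lower in edgeR. *NFYB* was not called with the GC-content offset (-0.19 ± 0.11, adjusted p = 0.197, range over alternatives 0.000208 to 0.24), while *CREB1* was (-0.33 ± 0.08, adjusted p = 0.00643, range over alternatives 1.2e-07 to 0.0216).

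More of the classical interferon-stimulated genes were called lower than higher. Of 33 listed, 22 were tested, and 10 of these were called lower and 5 higher, against 19.5% and 19.8% of all tested genes. Their median log2 fold change was -0.73. Those called lower include *OASL* and *OAS2* (21, 13 and 13 counts in DKK1-SE+/+ and 0, 0 and 1 in DKK1-SE-/- samples), which passed the filter through the DKK1-SE+/+ group alone. *IFIT1*, an RNA-binding antiviral protein, had 15.04, 15.03 and 15.3 TPM in DKK1-SE+/+ and 0.7, 1.3 and 1.18 TPM in DKK1-SE-/- samples (-3.68 ± 0.19, edgeR adjusted p = 3.16e-07). *OASL*, a relative of the oligoadenylate synthases, had 7.66, 7.9 and 6.62 TPM and 0.47, 0.66 and 0.33 TPM, from 203, 146 and 145 counts and 9, 11 and 7 counts. It passed the filter through the DKK1-SE+/+ group alone, so its fold change is not quoted. Neither gene had a DKK1-SE-/- sample near the DKK1-SE+/+ range. *ISG15*, a ubiquitin-like protein and the most abundant of the list, had 214, 195 and 183 TPM and 89.4, 125 and 69.4 TPM (-0.86 ± 0.20, edgeR adjusted p = 0.00705). *MX2*, an interferon-induced GTPase, was higher instead, at 1.36, 1.02 and 0.89 TPM and 10.2, 6.61 and 9.46 TPM (3.94 ± 0.22, edgeR adjusted p = 6.04e-07). Under the GC-content offset 11 of the 22 were called lower and 5 higher, against 20.4% and 20.9% of all tested genes. The 4 genes named here were chosen from the list after their values were seen.

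**Figure D3:**
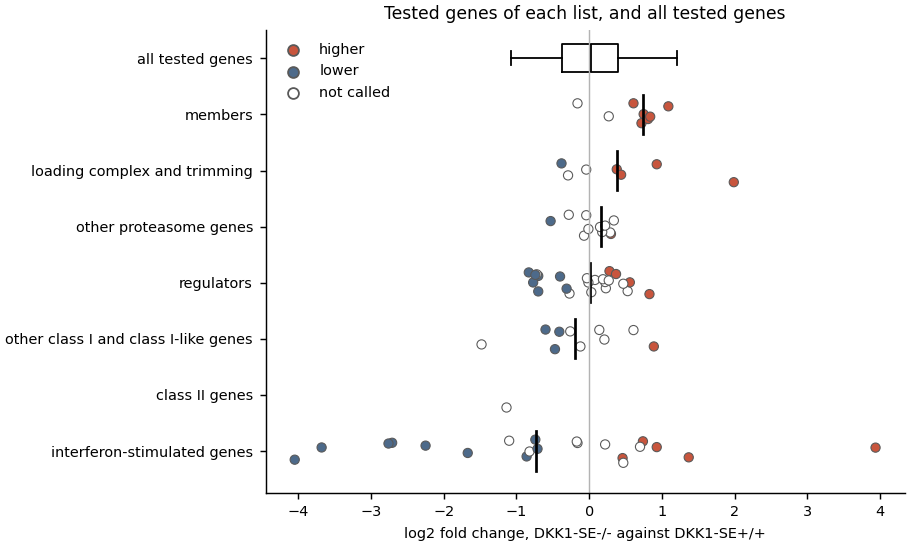
Log2 fold changes in edgeR of the tested genes of each list (points, coloured by call, vertical bars at the list median) and of all 15179 tested genes (box from the lower to the upper quartile, line at the median, whiskers from percentile 5 to 95). The members lie mostly right of 0 and the interferon-stimulated genes mostly left of it, and *HLA-DOA* and *OAS2*, at 0 or 1 counts in every sample of a group, are not drawn.

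Other class I and class I-like genes were mixed, with more called lower than higher. Of 14 counted, 10 were tested, 1 was called higher and 3 lower, against 19.8% and 19.5% of all tested genes, with a median of -0.19. The gene called higher was *MR1*, which presents vitamin B metabolites, with 1.12, 1.92 and 2.11 TPM in DKK1-SE+/+ and 3.18, 3.58 and 3.9 TPM in DKK1-SE-/- samples (0.89 ± 0.21, edgeR adjusted p = 0.00642). *MICB*, a stress-induced ligand of the NKG2D receptor, had 50.1, 55.9 and 48.2 TPM and 35.3, 32.2 and 32.9 TPM, lower in each DKK1-SE-/- sample (-0.47 ± 0.11, edgeR adjusted p = 0.00675). *ULBP3*, also an NKG2D ligand, was -0.60 ± 0.17 (adjusted p = 0.0181 in edgeR), a call lost without DKK1-SE+/+ replicate 1 or 3 or DKK1-SE-/- replicate 2 (log2 fold changes of -0.61 to -0.54, adjusted p = 0.0548 to 0.0734, range over alternatives 0.0128 to 0.134). *HFE*, a class I-like protein of iron control, was -0.41 ± 0.13 (adjusted p = 0.0303), and its call was lost without DKK1-SE+/+ replicate 1 or 2 or DKK1-SE-/- replicate 2 (log2 fold changes of -0.43 to -0.33, adjusted p = 0.0812 to 0.129, range over alternatives 0.017 to 0.485) and with a GC-content offset (-0.22 ± 0.12, adjusted p = 0.166).

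*MICA* (-0.12 ± 0.14), *FCGRT* (-0.26 ± 0.19), the IgG receptor of epithelia, *ULBP1* (0.61 ± 0.26), *ULBP2* (0.14 ± 0.33), *RAET1E* (0.21 ± 0.24) and *RAET1G* were not called in edgeR. With the GC-content offset *MICA* (-0.33 ± 0.11, adjusted p = 0.0375, range over alternatives 0.0375 to 0.746) and *FCGRT* (-0.61 ± 0.17, adjusted p = 0.0149, range over alternatives 0.0149 to 0.656) were called lower and *ULBP1* (0.80 ± 0.23, adjusted p = 0.0176, range over alternatives 0.0176 to 0.454) higher. Under that offset 2 of the 10 tested genes of the list were called higher and 5 lower. The shares of all tested genes were 20.9% and 20.4%, and the list median was -0.27. *ULBP1* passed in 3 of 15 alternatives, among them the fit without DKK1-SE-/- replicate 1 (log2 fold change 0.77, adjusted p = 0.0352), *FCGRT* in 2 of 15 and *MICA* in 1 of 15. *RAET1G* had 39, 13.2 and 12 counts in DKK1-SE+/+ and 11, 4 and 5 counts in DKK1-SE-/- samples. It was called lower in 6 of 15 alternatives, but passed the filter through the DKK1-SE+/+ group alone, so its fold change is not quoted.

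Class II genes, which present peptides to CD4 T cells, were near 0 in both groups, and 2 of 11 listed were tested. *CD74*, the invariant chain and the most abundant of them, had 1.12, 1.26 and 1.09 TPM in DKK1-SE+/+ and 0.1, 0.51 and 0.48 TPM in DKK1-SE-/- samples. It was not called in edgeR and was called lower in 2 of 15 alternatives. It passed the filter through its DKK1-SE+/+ counts alone, so its fold change is not quoted. *HLA-DOA*, called higher in edgeR, had 0, 1 and 0 counts and 14, 11 and 10.0 counts, too few for a fold change.

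Of the 9 members, 8 lie in the MHC on chromosome 6. Between the start of *HLA-F* and the end of *HLA-DPB1* (chr6:29722775-33089696, 3.37 Mb) there were 99 other tested genes counted. Of these, 21 were called higher and 5 lower, against 19.8% and 19.5% of all tested genes. Their median log2 fold change was 0.21, between that of all tested genes and that of the members. Their median GC content was 54.5%. Under the GC-content offset 16 were called higher and 14 lower, against 20.9% and 20.4% of all tested genes, with a median of 0.03. The smallest p-values among those higher were those of *NEU1*, a lysosomal sialidase (12, 9.38 and 9.51 TPM in DKK1-SE+/+ and 30.6, 25.6 and 24.9 TPM in DKK1-SE-/- samples, 1.46 ± 0.14, adjusted p = 2.95e-05 in edgeR), *ATF6B*, an endoplasmic reticulum stress factor (0.78 ± 0.10, adjusted p = 0.000181), and *HLA-DOA*, which passed the filter through its DKK1-SE-/- counts alone. Among those lower they were ENSG00000289047, a gene without a name (-0.91 ± 0.20, adjusted p = 0.00444), *MICB*, and *IER3*, an early response gene (-0.54 ± 0.13, adjusted p = 0.00689).

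**Figure D4:**
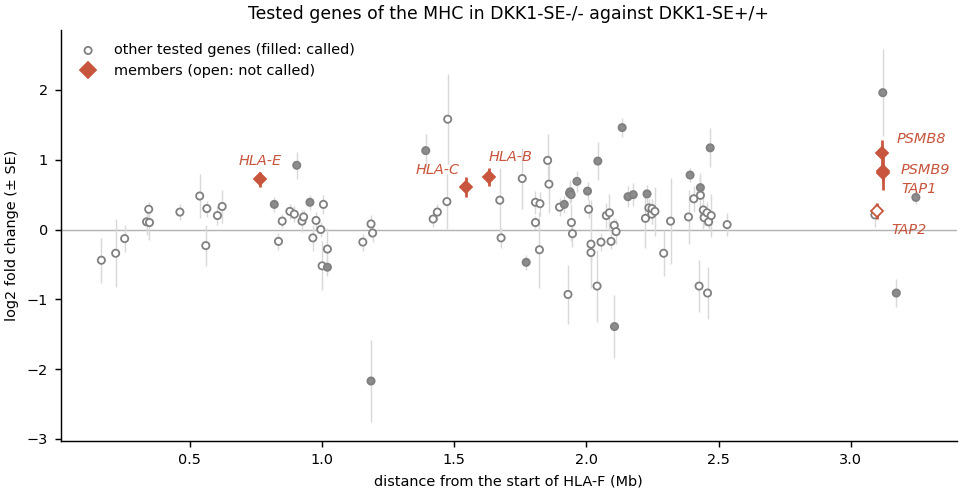
Log2 fold changes with SE in edgeR of the tested genes of the MHC against distance from the start of *HLA-F* in Mb, with the members as diamonds. Filled symbols were called, the called members lie above 0, and *HLA-DOA* is not drawn because it had 0 or 1 counts in each DKK1-SE+/+ sample.

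The order of the levels was the same in both groups. *B2M* was followed by *HLA-E*, *HLA-C*, *TAP1*, *HLA-B*, *TAP2*, *PSMB8*, *PSMB9* and *HLA-F*, by mean TPM. *HLA-E* and *HLA-C* overlapped in each group and are not ordered beyond their spread, and the other neighbours in the order did not overlap. As a description of likeness, the centred log2(TPM + 1) of each member over the 6 samples was compared with that of 9593 tested genes with a mean of at least 5 TPM, by the root mean square difference. *TAP1* and *HLA-E* were each other's nearest genes (a difference of 0.0383), and *HLA-B* ranked 7 for *HLA-E* and 11 for *TAP1*. For *HLA-B* the nearest were *PSMC3*, *COMMD5* and *PHF1* (0.0192 to 0.0409), of which *PSMC3* is a proteasome ATPase gene outside the proteasome list, and for *HLA-C* *ZFPL1*, *JMJD4* and *DDAH2* (0.0334 to 0.049). The next nearest genes were *PSMC3* and *COMMD5* for *HLA-E* and *EPOR* and *RPL39L* for *TAP1*. *TAP2* was nearest to *QTRT2*, *YBX3* and *SNX19* (0.0559 to 0.0683), and *B2M* to *GTF2A2*, *NDUFS5* and *ZCCHC10* (0.0362 to 0.0664). *PSMB8* was nearest to *NQO1*, *SNRNP25* and *TMEM39A* (0.0953 to 0.107), *PSMB9* to *POLR2G*, *COX17* and *RPL24* (0.146 to 0.147) and *HLA-F* to *GTPBP8*, *EME2* and *UMPS* (0.0606 to 0.154). *HLA-F* itself had a mean of 0.993 TPM over all samples, below the limit of 5 TPM, so its nearest genes rest on few counts.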

How the data were processed

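Stranded mRNA libraries of PANC-1 cells were sequenced. The authors deposited, for each gene and sample, an expected count, not normalized and not always whole (32.3% of counts above 0), and TPM, normalized within each library. The build is hg38 per the submitters' processing notes, and the aligner, the counting program and the annotation are not given in the sources used here. The same table holds the authors' linear and log2 fold changes, p-values and adjusted p-values for DKK1-SE-/- against DKK1-SE+/+, and the mean TPM of each group, none of which was used.

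Expected counts were rounded and tested in edgeR 4.0.16 (R 4.3.3) with filterByExpr (minimum count 10), TMM factors (0.939 to 1.04) and its quasi-likelihood F test, and p was adjusted by Benjamini-Hochberg over all tested genes. The SE of a log2 fold change is its size divided by the square root of F. Positions and GC content (of the longest transcript of each gene) came from GENCODE 44, which placed 99.9% of identifiers, and promoters from RefSeq. Groups came from the sample titles. Alternatives were DESeq2 1.42.0, RLE factors, library size alone, no filter beyond a summed count of 1, the replicate block, each sample left out, limma 3.58.1 (trend) on log2(TPM + 1) or on log2(TPM + 0.1) for genes with a mean of at least 0.1 TPM, a GC-content offset from 40 bins with and without the block, and the DEG rule for members, with its limit on the log2 scale or, added after seeing the data, on the linear fold change. The fits were tested on simulated data.

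Members and lists were chosen with earlier results of these data known. All members were named. All genes of peptide loading were named, of the proteasome list the immunoproteasome, activator and catalytic subunits, of the regulators *NLRC5*, *IRF1*, *IRF2*, *IRF9*, *STAT2*, *RFX5* and those called, of the class I-like genes those with a mean of at least 1 TPM, of class II the most abundant and those called, up to 4 interferon-stimulated genes, 3 MHC neighbours in each direction by p-value, and the 3 genes most like each member. *NFKB1*, *TYK2*, *PSMD1* and *PSME3* were added after their values were seen. Some results are not reported here, and list counts leave those genes out.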

Additional observations from a re-analysis of the deposited data

How the results depend on the processing

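*HLA-B*, *HLA-E*, *TAP1* and *PSMB8* were called higher under all 15 alternatives, and *DKK1* lower. *HLA-C* kept its call in 13, *PSMB9* in 8, and *TAP2* passed in 1. Over the 8 tested members, 108 of 120 alternative values kept both direction and side of the threshold, 9 lost the call, 1 gained it and 2 turned direction. Of the values of other named genes, 649 kept both, 85 lost a call, 26 gained one and 20 turned direction. Under the fitted alternatives the share of tested genes called higher ranged from 1238 of 22311 (limma on log2(TPM + 0.1)) to 3703 of 15618 (without DKK1-SE-/- replicate 3). The number of members called higher was 5 to 7 under them, where each 7 counts *HLA-F*, which has few counts. It was 7 with the DEG limit on the linear fold change, which counts *TAP2* and not *HLA-F*, and 0 with that limit on the log2 scale, and none was called lower in any. A count of 6 can hide a change of members, since *HLA-F* enters without a DKK1-SE+/+ sample as *PSMB9* leaves. In the fits with a sample left out *HLA-F* passed the filter through its DKK1-SE-/- counts alone, so its calls there are not relied on. *PSMB9* lost its call with library size alone (0.77, adjusted p = 0.0565 in edgeR), with limma on log2(TPM + 1) (0.54, adjusted p = 0.123) and with limma on log2(TPM + 0.1) (0.62, adjusted p = 0.166).

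Genes called numbered 5972, against 3315 with limma on log2(TPM + 0.1) and 4095 to 7558 with a sample left out. DEGs numbered 1314, against 7227 with the limit on the linear fold change, a reading added after seeing the data, 2490 without the filter, where more genes are tested, and 512 with limma on log2(TPM + 1). With a GC-content offset the log2 fold change turned to 0.21 for *B2M*, 0.23 for *CANX* and -0.14 for *PSMB10*. On log2(TPM + 1) it turned to -0.26 for *PSMB10* and -0.01 for *ULBP2*, and on log2(TPM + 0.1) to -0.28 and -0.01. With a sample left out it ranged from -0.14 to 0.04 for *CANX*, -0.08 to 0.41 for *PSMB10*, -0.18 to 0.00 for *PSME1*, -0.15 to 0.06 for *PSME2*, -0.06 to 0.50 for *NLRC5*, -0.14 to 0.04 for *TYK2* and -0.03 to 0.26 for *ULBP2*. The cause was not tested for *B2M*, *CANX*, *PSMB10* and *ULBP2*, none of which was called in edgeR.

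Same-numbered samples of the groups had correlations of -0.123, -0.0738 and -0.109 of their deviations from the group means. Over all pairs across the groups these ran from -0.123 to 0.153, so no pairing by number was seen. Shared handling of same-numbered samples was not tested. With the replicate block, 4981 of 15179 tested genes were called, 2404 higher and 2577 lower, and 1370 were DEGs. The 6 members stayed called and none was called lower. With the GC-content offset and the replicate block, 5499 of 15179 tested genes were called, 2735 higher and 2764 lower. In that fit 5 members were called higher, *HLA-C* was 0.27, adjusted p = 0.0772 in edgeR, and the values turned to 0.20 for *B2M*, 0.23 for *CANX* and -0.16 for *PSMB10*.

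Each member symbol had 1 row, so summing rows with the same symbol was not run. Depth limits *HLA-F*, at 3 to 32 counts, and *PSMB9*, at 41 to 136. Split of reads between HLA genes, between overlapping genes of the MHC, and between strands was not tested, nor were protein and surface levels measured. A single DKK1-SE-/- clone was sequenced.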
